A study of Mus musculus with 8 samples.

Results

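Glucocorticoid-responsive genes were followed in the mucosa of the rectum and of the middle colon of mice kept alone or in company. The 10 genes were Nr3c1 and Hsd11b1, which set how a cell receives the hormone, Fkbp5, Tsc22d3, Zbtb16, Klf9, Ddit4 and Errfi1, which the hormone induces, and the metallothioneins Mt1 and Mt2. They were listed by name as genes known to take part in the response to the hormone. The list was made with earlier results of these data known, and measured levels chose the probe of each gene. A gene was matched through the transcript accession of its probes, and the brightest of its probes stood for it. Matching found 9 of the 10 genes among the 16309 named genes on the array, and Zbtb16 was not analysed here. All 9 matched genes, with 15 probes in all, were above background on 8 of 8 arrays and were tested among 12720 genes.

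The mice were male brothers, 10 to 12 weeks old when isolation began, either wild type (WT) or lacking the gene for the cytokine interleukin 18 (IL18ko). Stress was individual housing, and control mice were sampled without it. The isolation lasted 8 days by the description of the design, which has the controls taken before it, and 16 days by the treatment protocol; the files do not settle which is right. The 8 groups were the IL18ko stress, IL18ko control, WT stress and WT control mice, each with a rectum and a middle colon array. All had been raised in groups of brothers and were killed in the morning under diethyl ether, an anaesthetic that the control mice received too. The labels gave no strain. Rectal mucosa came from within 7 mm of the anus, and colonic mucosa from 2.5 to 3.5 cm below the ileocecal junction. Each group was a single array of labelled RNA from a pool of 5 mice, without replicates. The spread in the tests below comes from how far the 8 pools depart from fitted effects of tissue, genotype and housing. These effects were additive except in the tests of an interaction. Limma draws that spread towards the one shared by probes of like level.

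Glucocorticoids are adrenal steroid hormones, corticosterone in the mouse, and their release rises in stress. The hormone enters the cell and binds the glucocorticoid receptor, which is held ready in the cytoplasm by the chaperone HSP90 and its partners, moves to the nucleus, binds DNA and raises or lowers the transcription of its target genes. How much hormone a tissue sees also depends on enzymes that switch it on or off inside the cell. In the intestine glucocorticoids act on epithelial transport and maturation and damp inflammation, and intestinal epithelium can itself make the steroid.

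Between 62.2% and 66.4% of spots lay well above background on an array, and 0 spots were saturated. Il18, the targeted gene, was at 5.88 on the stress and 4.40 on the control array of WT rectum, and at 2.91 and 2.76 on those of WT colon (log2, relative to the 75th percentile of the array, the scale of all levels below). On the 4 IL18ko arrays it did not rise above background. The rectum arrays may have shared 1 slide and the colon arrays another, in which case a slide effect and a tissue effect cannot be told apart. The array of WT stress rectum stood apart from the rest. It had the lowest 75th percentile, 578 intensity units against 663 to 818 on the other arrays, and the stress pair and the genotype pair that use it had more probes past 1.5-fold, 28.1% and 33.9%, than any other such pair.

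The metallothionein genes are shown by their promoters, since metals as well as steroids induce them and their promoters held the most matches to the metal-response core among the members read. The promoter here is the stretch from 250 bases before to 50 bases after the start of transcription in RefSeq (GRCm38.p6), read for 8 of the members. The promoters of Nr3c1 and Zbtb16 were not read. Mt2 lies on the plus strand and its stretch is chr8:94172368-94172667, and that of Mt1, also on the plus strand, is chr8:94178839-94179138. Capitals mark every match on either strand to the metal-response core, the letters TGCGCNC or TGCACNC.
Mt2: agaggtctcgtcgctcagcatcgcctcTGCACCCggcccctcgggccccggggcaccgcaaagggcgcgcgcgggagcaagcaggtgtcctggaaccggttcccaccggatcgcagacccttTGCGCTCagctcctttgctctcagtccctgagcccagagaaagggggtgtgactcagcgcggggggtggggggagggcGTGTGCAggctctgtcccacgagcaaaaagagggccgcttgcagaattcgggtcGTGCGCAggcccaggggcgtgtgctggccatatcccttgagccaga
Mt1: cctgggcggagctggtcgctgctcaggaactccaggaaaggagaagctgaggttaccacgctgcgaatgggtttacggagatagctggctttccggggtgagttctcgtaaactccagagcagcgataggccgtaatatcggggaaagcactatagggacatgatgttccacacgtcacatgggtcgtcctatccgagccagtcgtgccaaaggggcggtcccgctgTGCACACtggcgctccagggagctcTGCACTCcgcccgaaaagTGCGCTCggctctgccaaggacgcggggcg

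Mt2 held 4 matches, of which 3 lay before the RefSeq start, and Mt1 held 3, of which 1 lay before that start. Whether these are the starts most used was not tested, and sites past the stretches were not searched. Over 32851 promoters of the same length, 25.7% held at least 1 match, 1.97% at least 3 and 0.517% at least 4. Ddit4 and Hsd11b1 each held 1 match, and the other 4 genes read held 0. The receptor binds a palindrome, and a single arm of it, TGTTCT on either strand, matched once, in 1 of the 3 promoters of Tsc22d3. At least 1 such match stood in 19.0% of all promoters. None of the genes read held 2 such arms facing each other with 3 bases between them, which 0.00913% of all promoters did. No match overlapped another, and a match is letters only, not evidence of binding. Receptor sites far from a start lie outside these stretches and were not searched.

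Of the 9 genes, 4 were higher in rectum than in colon, Klf9, Ddit4, Mt1 and Mt2, and 0 were lower, in limma's test with Benjamini-Hochberg adjustment over 26273 probes. Of all probes, 31.7% were called between the tissues in either direction, so calls were common across the array and 4 of 9 is not read as a result about the genes as a group. Neither housing nor genotype moved any of the 9 past the same threshold, an adjusted p under 0.05. With stress 0% of all probes were called, and between the genotypes 0.122%. At an unadjusted p under 0.05 there were 6 of the 9 genes between tissues, 1 between the genotypes and 1 between stress and control, against 42.8%, 20.4% and 3.45% of probes.

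**Figure D1:**
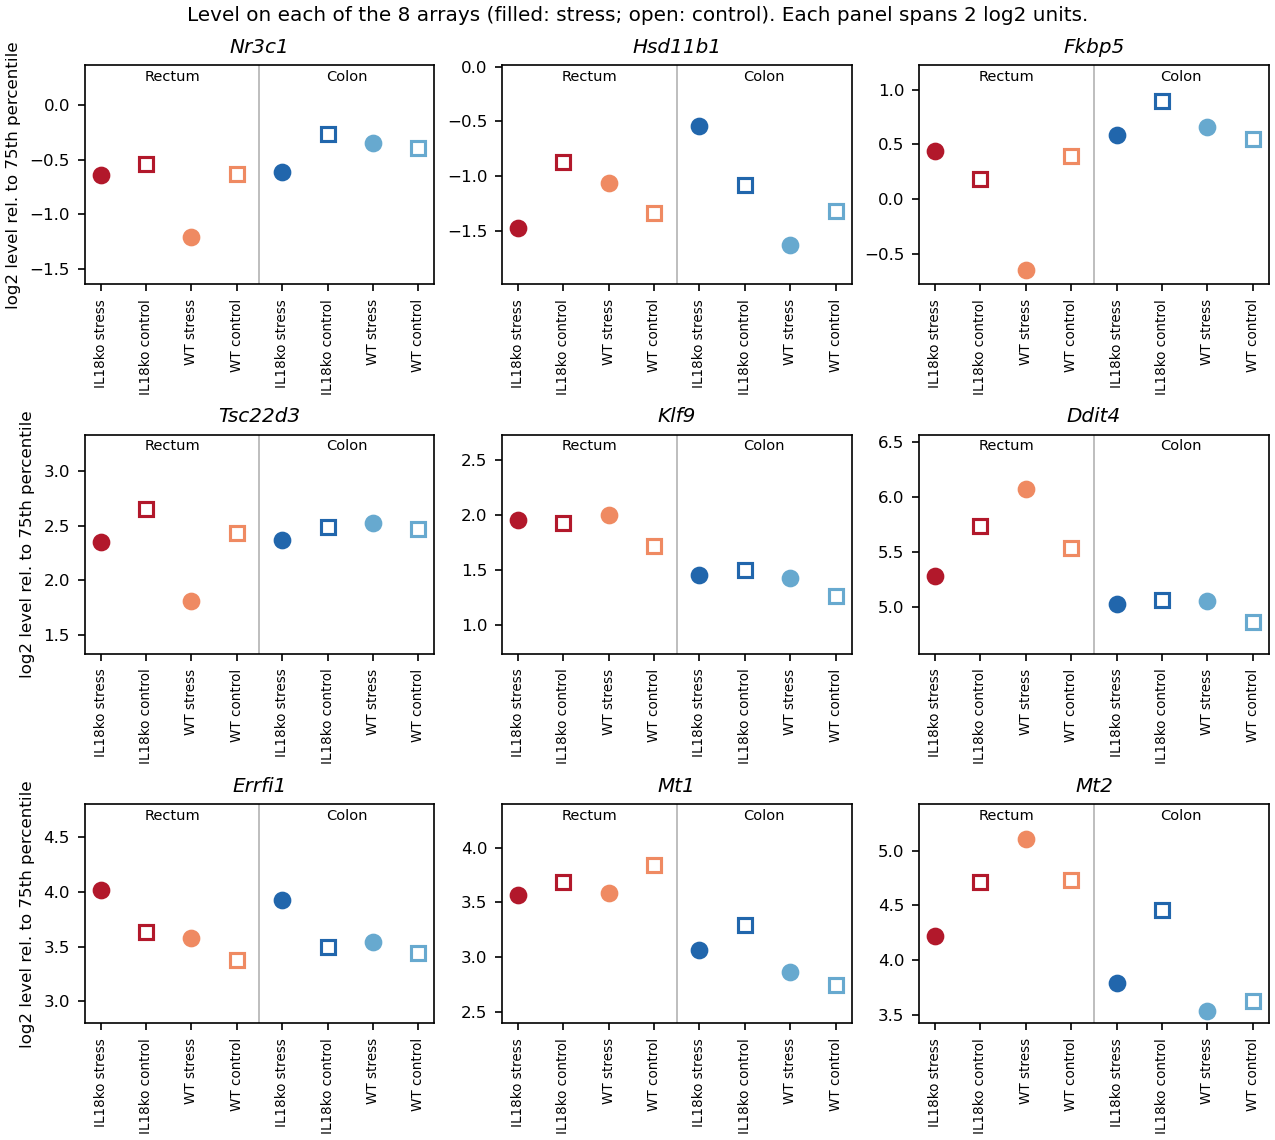
Level of each of the 9 genes on each of the 8 arrays, in log2 relative to the 75th percentile of the array; filled circles are stress arrays and open squares control arrays, rectum left of colon in each panel, and each panel spans 2 log2 units. Klf9, Ddit4 and Mt1 are higher on all 4 rectum arrays than on any colon array, and Fkbp5, Nr3c1 and Tsc22d3 are lowest on the WT stress rectum array.

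Nr3c1 encodes the glucocorticoid receptor itself. Its level was -0.64 in stress and -0.55 in control rectum of IL18ko mice, and -1.21 in stress and -0.63 in control rectum of WT mice. In colon it was -0.61 and -0.27 in IL18ko stress and control mice, and -0.35 and -0.40 in WT stress and control mice. The lowest value was that of WT stress rectum, and the rectum and colon ranges met only through the IL18ko stress colon array. The receptor averaged -0.76 ± 0.30 in rectum and -0.41 ± 0.15 in colon (SD, n = 4 arrays each), a difference of -0.35 ± 0.14 (SE) that did not pass limma's test (adjusted p = 0.0986). Without the WT stress rectum array the difference was -0.22 (adjusted p = 0.117).

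The 3 probes of Nr3c1 differed. The second brightest gave a rectum minus colon difference of -0.40 that limma called (adjusted p = 0.0461), and the third gave -0.13 (adjusted p = 0.508). In WT rectum the stress minus control difference was -0.58 by the brightest probe, 0.24 by the second and -0.29 by the third. A low receptor level on the WT stress rectum array was thus read by some of its probes and not by all.

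Hsd11b1 encodes the enzyme that regenerates active glucocorticoid from its inactive form inside the cell. Its level was -1.47 in stress and -0.87 in control rectum of IL18ko mice, and -1.07 in stress and -1.34 in control rectum of WT mice. In colon it was -0.54 and -1.08 in IL18ko stress and control mice, and -1.63 and -1.31 in WT stress and control mice. Both the highest and the lowest array were from colon, and the tissues overlapped over the whole rectum range. The mean was -1.19 ± 0.27 in rectum and -1.14 ± 0.46 in colon (SD, n = 4 arrays each), a difference of -0.04 ± 0.22 (SE; limma adjusted p = 0.902). Fibroblast and endothelial markers, all 11 above background on every array, summed to 94.7 times the 75th percentile on the IL18ko stress colon array, where Hsd11b1 was highest, and to 56.6 to 60.4 on the other colon arrays. In rectum their sum was 81.9 to 128, and it was 93.7 on the IL18ko stress array, where Hsd11b1 was lowest of the 4. Their part in the Hsd11b1 values was not tested, and in such tissue a change in the number of cells and one in RNA per cell cannot be told apart.

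Fkbp5, a co-chaperone that lowers the hormone affinity of the receptor and is itself strongly induced by it, was lowest in rectum of WT stress mice. Its level was 0.43 in stress and 0.18 in control rectum of IL18ko mice, and -0.65 in stress and 0.40 in control rectum of WT mice. In colon it was 0.59 and 0.90 in IL18ko stress and control mice, and 0.66 and 0.55 in WT stress and control mice. All 4 rectum arrays lay under all 4 colon arrays, with the WT stress rectum array far below the other 7. The mean was 0.09 ± 0.51 in rectum and 0.67 ± 0.15 in colon (SD, n = 4 arrays each), a difference of -0.58 ± 0.21 (SE) that missed the threshold (limma adjusted p = 0.0705). Without the WT stress rectum array the difference was smaller, -0.35, and passed (adjusted p = 0.0467), as it did without the IL18ko stress rectum array (-0.75, adjusted p = 0.0291). Of its other probes, the second gave -0.52 (adjusted p = 0.0630) and the third -0.35 (adjusted p = 0.0398).

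Tsc22d3 encodes GILZ, a leucine zipper protein that the hormone induces and that restrains inflammatory transcription. Its level was 2.35 in stress and 2.65 in control rectum of IL18ko mice, and 1.81 in stress and 2.43 in control rectum of WT mice. On the colon arrays it was 2.37 and 2.49 in IL18ko stress and control mice, and 2.53 and 2.47 in WT stress and control mice. The 4 colon arrays thus lay within a narrow band (SD 0.07), and the WT stress rectum array was the lowest of the 8. The rectum minus colon difference was -0.15 ± 0.14 (SE; limma adjusted p = 0.453), and -0.01 without that array.

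Klf9, a zinc finger transcription factor and direct target of the receptor, was higher in rectum. Its level was 1.95 in stress and 1.93 in control rectum of IL18ko mice, and 2.00 in stress and 1.72 in control rectum of WT mice. In colon it was 1.46 and 1.498 in IL18ko stress and control mice, and 1.43 and 1.26 in WT stress and control mice. The tissues did not overlap. The mean was 1.90 ± 0.12 in rectum and 1.41 ± 0.10 in colon (SD, n = 4 arrays each), a rise of 0.49 ± 0.09 (SE; limma adjusted p = 0.00543). The second probe of Klf9 was called as well, with a difference of 0.29 (adjusted p = 0.0462).

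Ddit4 encodes REDD1, an inhibitor of the growth kinase mTORC1 that glucocorticoid, low oxygen and energy shortage induce. Its level was 5.28 in stress and 5.74 in control rectum of IL18ko mice, and 6.08 in stress and 5.54 in control rectum of WT mice. In colon it was 5.03 and 5.06 in IL18ko stress and control mice, and 5.05 and 4.86 in WT stress and control mice. The tissues did not overlap, and the rectum arrays were spread more widely than the colon arrays. Ddit4 averaged 5.66 ± 0.34 in rectum and 5.00 ± 0.09 in colon (SD, n = 4 arrays each), a rise of 0.66 ± 0.16 (SE; limma adjusted p = 0.0201). The call was lost without the WT control colon array (0.58, adjusted p = 0.0839), the IL18ko stress colon array (0.68, adjusted p = 0.0531) or the IL18ko control rectum array (0.58, adjusted p = 0.0795).

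Errfi1, also called MIG6, is a feedback inhibitor of the EGF receptor. Its level was 4.02 in stress and 3.63 in control rectum of IL18ko mice, and 3.58 in stress and 3.38 in control rectum of WT mice. In colon it was 3.93 and 3.50 in IL18ko stress and control mice, and 3.54 and 3.44 in WT stress and control mice. The same order of groups stood in both tissues, except that WT stress and IL18ko control mice changed places in colon, and the 2 IL18ko stress arrays were the highest of the 8. The rectum minus colon difference was 0.05 ± 0.09 (SE; limma adjusted p = 0.713).

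Mt1 and Mt2 encode metallothioneins, small proteins that bind zinc and copper and are induced by metals and by glucocorticoid. Mt1 was at 3.57 in stress and 3.68 in control rectum of IL18ko mice, and at 3.59 in stress and 3.84 in control rectum of WT mice. In colon Mt1 was at 3.06 and 3.30 in IL18ko stress and control mice, and at 2.87 and 2.75 in WT stress and control mice. The tissues did not overlap for Mt1, which averaged 3.67 ± 0.13 in rectum and 2.99 ± 0.24 in colon (SD, n = 4 arrays each), a rise of 0.68 ± 0.12 (SE; limma adjusted p = 0.00538).

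Mt2 was at 4.22 in stress and 4.72 in control rectum of IL18ko mice, and at 5.11 in stress and 4.73 in control rectum of WT mice. In colon Mt2 was at 3.79 and 4.46 in IL18ko stress and control mice, and at 3.54 and 3.63 in WT stress and control mice. Here the tissues overlapped, since the IL18ko control colon array lay above the IL18ko stress rectum array. Mt2 averaged 4.69 ± 0.36 in rectum and 3.85 ± 0.42 in colon (SD, n = 4 arrays each), a rise of 0.84 ± 0.24 (SE; limma adjusted p = 0.0347). The call was lost without the WT stress (0.75, adjusted p = 0.0848), WT control (0.68, adjusted p = 0.124) or IL18ko stress colon array (0.85, adjusted p = 0.0858), and without the WT control (0.86, adjusted p = 0.0876) or IL18ko control rectum array (0.90, adjusted p = 0.0753). It was also lost with no filter on dim probes (adjusted p = 0.0541) and with no variance trend (adjusted p = 0.0512). Mt1 and Mt2 are close relatives, and how far their probes tell the transcripts apart was not tested.

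**Figure D2:**
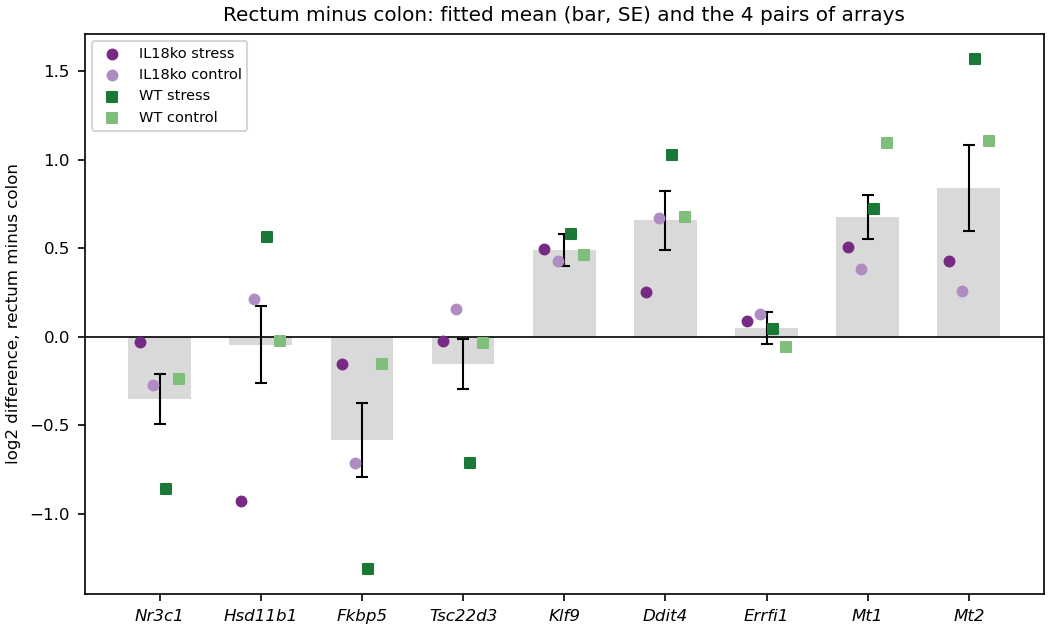
Rectum minus colon difference in log2 for each of the 9 genes; grey bars are the fitted means over all 8 arrays with their SE, and points are the 4 pairs of arrays, 1 per mouse group. Klf9, Ddit4, Mt1 and Mt2 have all 4 points above 0, and Fkbp5 and Nr3c1 have all 4 below 0 with the WT stress pair lowest.

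By mouse group, Klf9, Ddit4, Mt1 and Mt2 were higher in rectum in 4 of 4 pairs of arrays, as were 25.9% of all probes, and Fkbp5 and Nr3c1 were lower in 4 of 4, as were 21.5%. The Klf9 difference was the most even, 0.43 to 0.58. That of Mt2 ran from 0.26 and 0.43 in IL18ko control and stress mice to 1.11 and 1.57 in WT control and stress mice. Markers of other cell types moved with the tissue as well, beside 31.7% of all probes called in either direction. In limma's test 9 of 13 skeletal muscle markers were higher in rectum, 4 of which, Myh4, Tnnt3, Mb and Pvalb, were above background on 1 of 4 colon arrays, 5 of 7 macrophage and dendritic cell markers were higher with a median of 0.83, and 8 of 9 adipocyte markers were lower with a median of -1.28. Summed over the list and in multiples of the 75th percentile, skeletal muscle markers lay at 6.93 to 170 on rectum and 3.40 to 6.05 on colon arrays, macrophage and dendritic cell markers at 4.44 to 7.32 and 2.32 to 3.81, and adipocyte markers at 17.2 to 44.1 and 43.6 to 79.4. Of the other lists, 5 of 7 squamous epithelium, 3 of 11 fibroblast and endothelial and 2 of 7 T and B cell markers were higher, 5 of 5 enteric neuron and glia markers were lower, as were 1 squamous and 1 T and B cell marker, and 0 of 9 smooth muscle markers passed. Of the squamous markers called higher, Col17a1 was above background on 0 of 4 colon arrays and entered the test through rectum alone. The 11 markers of colonic epithelium on the array were above background on every array, with 2 higher and 3 lower in rectum. The part of other cell types in the rise of the 4 genes was not tested.

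Isolation stress gave no call among the 9 genes. In the fit over both tissues and genotypes, Errfi1 had the largest positive difference, 0.28 ± 0.09 (SE, n = 4 stress and 4 control arrays), with an unadjusted p of 0.0163 and a limma adjusted p of 0.896. That fit counts the rectum and colon arrays of a mouse group as separate. With the means of rectum and colon per mouse group, the limma adjusted p of Errfi1 was 0.437. Errfi1 averaged 3.77 in stress and 3.49 in control mice, and was the 1 member higher in 4 of 4 pairs, as were 8.53% of all probes. None of the 9 was lower in 4 of 4 pairs, as were 5.72% of probes. Fkbp5 had the largest negative difference, -0.25 ± 0.21 (SE; adjusted p = 0.896), which was -0.01 without the WT stress rectum array. Tsc22d3 followed with -0.25 ± 0.14 (SE; adjusted p = 0.896), and -0.10 without that array. Neither the difference of the stress effect between tissues nor that between genotypes was called for any member, with 0% of all probes called in each and 189 and 310 of 26273 probes at an unadjusted p under 0.05. A miss of the threshold does not show that isolation left the genes as they were.

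Pair by pair, with 1 array against 1 and no test, 4 of 36 member differences were past 1.5-fold (0.58 in log2). In WT rectum these were Fkbp5, -1.05, and Tsc22d3, -0.62, which is 2 of 9 where 28.1% of all probes were past 1.5-fold. In that pair the summed markers of skeletal muscle lay at 22.7 under stress and 6.93 in control, those of fibroblasts and endothelium at 128 and 81.9, and those of macrophages and dendritic cells at 7.32 and 4.44, and their part in the values was not tested. In IL18ko rectum it was Hsd11b1, -0.60, against 7.3% of probes, and in IL18ko colon Mt2, -0.67, against 12.2%. In WT colon it was 0 of 9, against 8.9% of probes, and all 9 differences there lay between -0.32 and 0.19. The signs did not run together across the pairs: 5 members were higher and 4 lower in WT rectum, 3 and 6 in IL18ko rectum, 2 and 7 in IL18ko colon, and 7 and 2 in WT colon. The medians of the members were 0.20, -0.11, -0.12 and 0.10 in these pairs, and those of all probes 0.02, 0.01, 0.03 and 0.01.

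**Figure D3:**
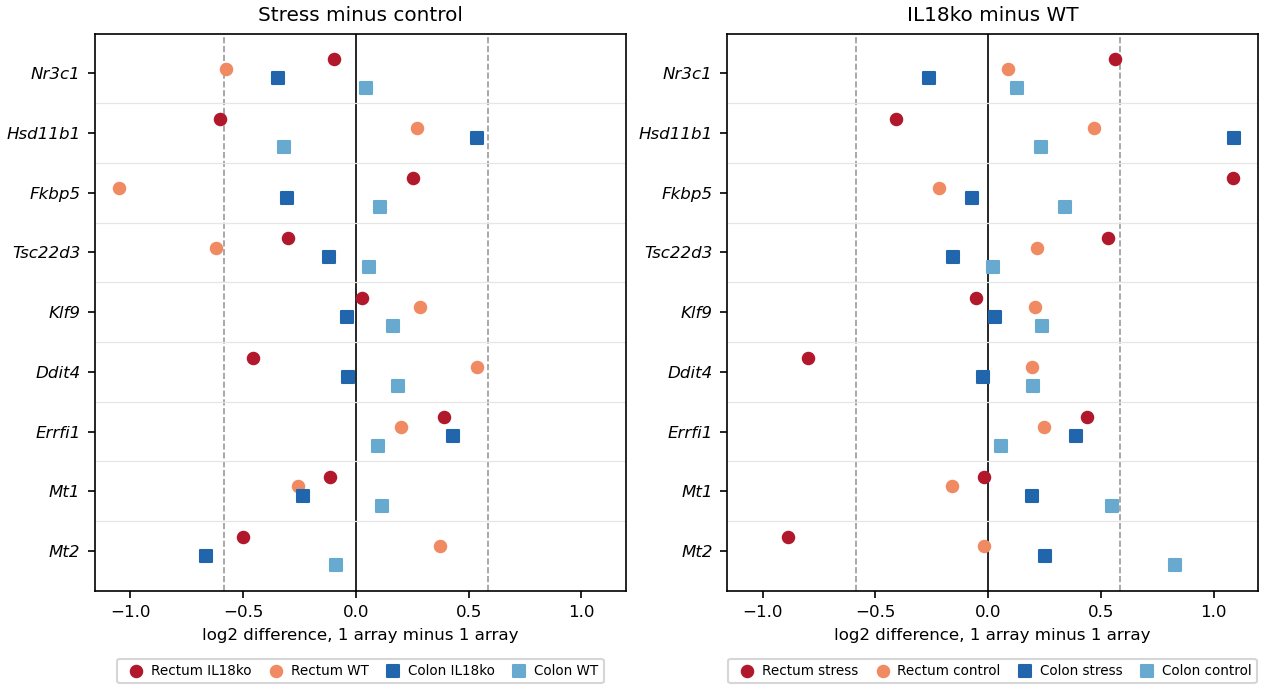
Log2 difference between 1 array and 1 array for each of the 9 genes, stress minus control on the left and IL18ko minus WT on the right; circles are rectum pairs, squares colon pairs, and dashed lines mark 1.5-fold. Past the lines on the left are Fkbp5 and Tsc22d3 in WT rectum, Hsd11b1 in IL18ko rectum and Mt2 in IL18ko colon; on the right are Fkbp5, Mt2 and Ddit4 in stress rectum, Hsd11b1 in stress colon and Mt2 in control colon.

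The probes of a gene bear on the WT rectum values. The Fkbp5 difference there was -1.05 with its brightest probe, -0.87 with the second and -0.25 with the third, the dimmest. Tsc22d3 had -0.62 and -0.54 with its 2 probes. In IL18ko rectum the first 2 probes of Fkbp5 gave 0.25 and 0.22 and the third -0.29, so that the direction there depends on the probe. In WT colon the largest difference of any probe of these genes was 0.12.

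**Figure D4:**
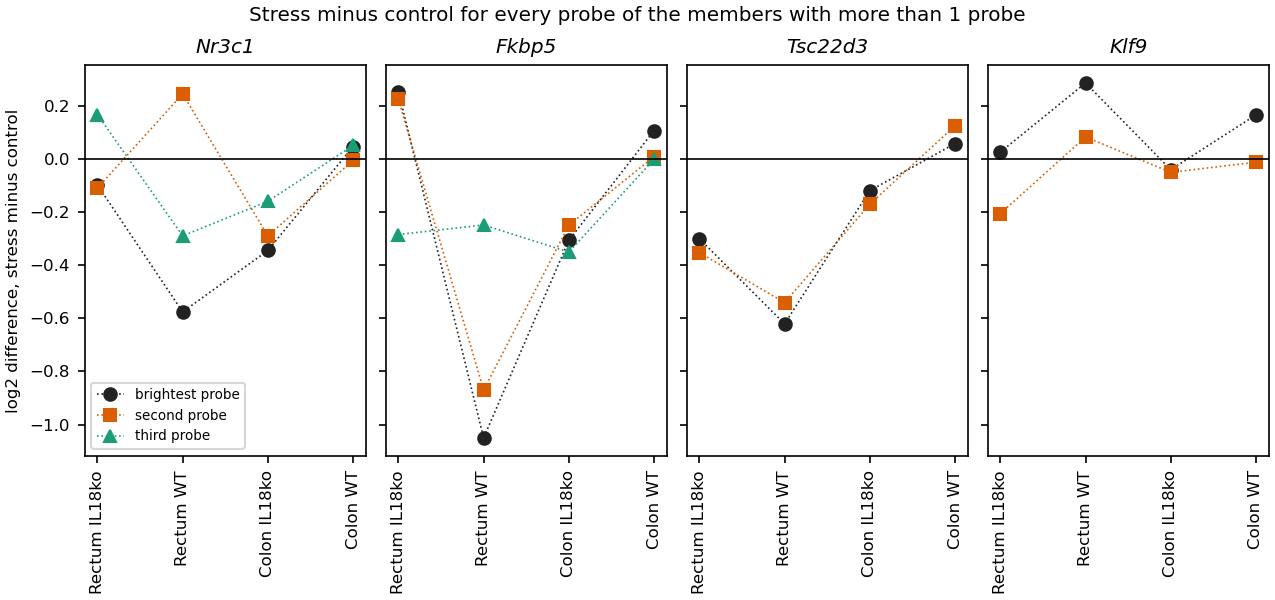
Stress minus control difference in log2 for every probe of the 4 genes with more than 1 probe, in each of the 4 pairs of arrays; dotted lines join the values of 1 probe and have no other meaning. In WT rectum the 2 brighter probes of Fkbp5 lie at -1.05 and -0.87 and the third at -0.25, the 2 probes of Tsc22d3 lie together, and the 3 probes of Nr3c1 lie on both sides of 0.

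Between IL18ko and WT mice no member was called, and by the brightest probes Errfi1 had the smallest adjusted p. It averaged 3.77 in IL18ko and 3.48 in WT mice (n = 4 arrays each), a difference of 0.28 ± 0.09 (SE; unadjusted p = 0.0151, limma adjusted p = 0.151). When the mouse group was a random block it passed (adjusted p = 0.0303), in a fit that called 5316 probes in place of 32. With the means of rectum and colon per mouse group, which rest on the same grouping, it did not pass (adjusted p = 0.103), and Hsd11b1 had the smaller value (0.0714). By the brightest probes Errfi1 was the 1 member higher in 4 of 4 pairs, with 0.44 in stress and 0.25 in control rectum and 0.39 in stress and 0.06 in control colon. Of all probes 12.9% were higher in 4 of 4 pairs, and 13.6% were lower in 4 of 4, as were 0 of the 9 genes. The third probe of Fkbp5 (0.40 to 0.75) and the second of Klf9 (0.19 to 0.47) were also higher in IL18ko mice in 4 of 4 pairs, and that Fkbp5 probe had a difference of 0.61 (adjusted p = 0.0807). Among the others, Hsd11b1 had the largest difference by its brightest probe, 0.35 ± 0.22 (SE; adjusted p = 0.416), which was 0.13 without the IL18ko stress colon array, 0.20 without the WT stress colon array and 0.57 without the IL18ko stress rectum array. Ddit4 was the 1 gene with a negative one, -0.11 ± 0.16 (SE; adjusted p = 0.758), which was 0.06 without the WT stress rectum array.

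Over the pairs of IL18ko and WT arrays, 5 of 36 member differences were past 1.5-fold. In stress rectum there were 3 of 9, Fkbp5 at 1.09, Mt2 at -0.89 and Ddit4 at -0.80, where 33.9% of all probes were past it. This pair shares the WT stress rectum array with the stress pair of WT rectum, so the values of both move with it. In control rectum there were 0 of 9 (15.9% of probes), in stress colon 1 of 9, Hsd11b1 at 1.09 (19.6%), and in control colon 1 of 9, Mt2 at 0.83 (12.1%). By the brightest probes, all 9 genes lay higher in IL18ko than in WT mice in control colon, by 0.02 to 0.83. Their median was 0.23, against a median of 0.01 over all probes. The second probe of Tsc22d3 gave -0.02 there. The share of all probes higher in this pair was not computed, so 9 of 9 is not read as a result about the group. In stress colon 5 of the genes were higher and 4 lower. The metallothioneins were higher in IL18ko mice in both colon pairs, by 0.20 and 0.55 for Mt1 and 0.25 and 0.83 for Mt2 in stress and control mice. In rectum the values were -0.02 and -0.16 for Mt1 and -0.89 and -0.02 for Mt2, and those of -0.02 took the other sign with some alternatives. The dependence of their genotype difference on tissue was -0.99 ± 0.34 for Mt2 and -0.46 ± 0.19 for Mt1 (SE; unadjusted p = 0.0249 and 0.0484, limma adjusted p = 0.68 for both). In that test 0% of all probes were called, with 1159 at an unadjusted p under 0.05.

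Other genes of the pathway, in lists chosen with results of these data known, were read in the same fits. Of 18 further genes that glucocorticoid induces, 5 were higher in rectum, 4 lower, and 9 did not pass, with a median of 0.07 against 0.05 over all probes. Limma's test called 31.7% of all probes between the tissues in either direction. Higher were Per1, a clock gene with a receptor site (0.76 ± 0.18, SE; adjusted p = 0.0156), the transcription factor Cebpd (1.48), the phospholipase inhibitor Anxa1 (0.62), the small GTPase Rhob (0.48) and Tat, an enzyme of tyrosine breakdown (0.38). Lower were Sgk1, a kinase that promotes sodium uptake (-0.64 ± 0.21, SE; adjusted p = 0.0481), the lipoprotein lipase inhibitor Angptl4 (-0.78), Gadd45g (-1.03) and Pdk4, which restrains glucose oxidation (-2.52 ± 0.21, SE; adjusted p = 0.000121). With genotype and with stress 0 of the 18 passed. The largest genotype differences were those of Pdk4 (1.04, adjusted p = 0.0868), Angptl4 (0.63) and Zfp36 (0.46). The largest stress differences were those of Il1r2 (-0.84, adjusted p = 0.896), Angptl4 (-0.63) and Dusp1 (0.45). Il1r2 was above background on only 5 arrays, and among the colon arrays only on that of IL18ko control mice. Its stress difference thus rests in part on values that did not rise above background. Pdk4 and Angptl4 are also made by fat cells, and adipocyte markers had a median genotype difference of 1.35 with 0 of 9 called. The part of fat cells in the Pdk4 and Angptl4 values was not tested.

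Among 10 partners and cofactors of the receptor, the coactivator Ncoa1 (0.69) was higher in rectum, the co-chaperones Ptges3 (-0.30) and Stip1 (-0.66) were lower, and 7 did not pass. For this list and those below, the share of all probes called between the tissues was 31.7%. The enzyme Hsd11b2, which inactivates the hormone and so works against Hsd11b1, was higher in rectum, by 0.51 ± 0.13 (SE; limma adjusted p = 0.0215). H6pd, which supplies Hsd11b1 with its cofactor, was lower, by -0.89 ± 0.10 (SE; adjusted p = 0.000464). Of the 9 tested genes of steroid metabolism and transport, Akr1c18, a steroid dehydrogenase, was lower too (-1.87), and 6 did not pass. Cyp11a1, the first enzyme of steroid synthesis, was above background on no array. In metal handling Mtf1, the factor that binds metal-response elements, was higher (0.63 ± 0.10, SE; adjusted p = 0.00259), the metallothionein Mt3 lower (-0.53), and 6 of 8 did not pass. The 7 tested genes that glucocorticoid represses were Pomc and genes of cytokines and inflammation. Ccl2 was higher (0.93), Tnf lower (-1.38), and 4, with Pomc among them, did not pass. The seventh gene, Cxcl1, was above background on 4 of 4 rectum and 0 of 4 colon arrays, so it entered the test through rectum alone. It was at least 2.84-fold higher there, and limma's test of the measured values gave an adjusted p of 0.0170. For that bound each colon array was set at its Cxcl1 value or its lowest signal above background, whichever was higher. With genotype and with stress 0 genes of these 4 lists passed.

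The members did not share 1 pattern over the 8 arrays. After each gene's mean was removed, the smallest root-mean-square distance between 2 members was 0.125 in log2, between Nr3c1 and Tsc22d3, followed by Klf9 with Mt1 at 0.20, Nr3c1 with Fkbp5 at 0.21 and Klf9 with Ddit4 at 0.21. The largest was 0.89, between Fkbp5 and Mt2, the members with the widest ranges, 1.55 and 1.57. Against 12711 other tested genes, the nearest to Fkbp5 were Xpnpep3 (0.10), Tmem220 (0.125) and Nat14 (0.13), and all 3 were lowest on the WT stress rectum array. The nearest to Mt2 were Tlr7 (0.12), Acan (0.18) and H1f3 (0.21), and to Ddit4, whose range was 1.21, Hnrnpul1 (0.10), Pyy (0.10) and Poli (0.11). Hnrnpul1, Pyy and Poli were highest on the WT stress rectum array, as was Ddit4. Genes picked for a near pattern tend to share its extreme array, so neither this nor the Fkbp5 case is a separate result.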

How the data were processed

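Signal intensity per spot was taken from the 8 scanner files. Feature Extraction 9.5.1.1 had made that intensity, per the file headers, with its background correction and on a linear scale, for 1 colour (Cy3). Per the labels, the table deposited by the authors holds a ratio to the WT control colon array; how it was scaled is not given in the sources used here, and it served as an alternative (log2, 18277 probes, r of at least 0.9949 with the scanner ratios).

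Outlier spots were left out and spots averaged, which kept 40963 of 41174 probes; 22857 had 1 gene by RefSeq accession and 18106 no name. Values are log2 of the intensity over the 75th percentile of the array's probes. Testing was limited to probes that stood well above background on 4 or more of the 8 arrays. Limma 3.58.1 (R 4.3.3) fitted tissue, genotype and housing to 8 arrays, with the variance trended on mean level and 4 residual degrees of freedom, and each interaction in a fit of its own. Pairs of 1 array and 1 array were not tested, and used probes above background on at least 1 of them.

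The members, the lists and the tests were chosen with earlier results of these data known. All members are named; of each list, the genes called, and otherwise up to 3 with the largest difference, some not given here; 1 tested gene of the list of receptor partners and cofactors is not reported here. For likeness, 3 genes are named for each of the 3 members of widest range. Alternatives were quantile normalization, median centring, other filters on dim probes, the mean of a gene's probes, no variance trend, tissue means, tissue differences, the mouse group as a block, leaving out arrays, the deposited ratios, and normexp background correction (offset 50). Normexp used the median signal, since the mean was not held, and without 15 probes far under their local background, a choice made after seeing the data: with them the array median moved to 8.81 to 10.15 on 3 arrays, against 6.62 to 6.91. No genome of the array's design build was held, so coordinates are those of RefSeq. Tables and plots were made in Python 3.11.15 with pandas 2.3.3, numpy 2.4.6 and matplotlib 3.10.9.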

Additional observations from a re-analysis of the deposited data

Results flagged for a closer look

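The stress minus control difference of Ddit4 had opposite signs in the genotypes. It was -0.456 in rectum and -0.037 in colon of IL18ko mice, and 0.537 in rectum and 0.186 in colon of WT mice. The test of that dependence gave -0.61 ± 0.27 (SE; unadjusted p = 0.0606, limma adjusted p = 1), so the difference between the genotypes did not pass. The value of -0.037 is small, and that of 0.537 uses the WT stress rectum array. Without that array the fitted stress difference of Ddit4 over both tissues and genotypes was -0.11, in place of 0.06. The signs were the same with the deposited ratios, normexp, median centring and quantile normalization, and the WT rectum value was 0.24 with quantile normalization.

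The IL18ko minus WT difference of Mt1 had opposite signs in the tissues, -0.017 in stress and -0.161 in control rectum, against 0.196 in stress and 0.549 in control colon. That of Mt2 was -0.888 in stress and -0.017 in control rectum, against 0.251 in stress and 0.831 in control colon. The tests of this dependence, given in the report, did not pass after adjustment. A difference of -0.017 has no firm sign: for Mt1 in stress rectum it was 0.20 with quantile normalization and 0.19 with the deposited ratios, and for Mt2 in control rectum 0.03 with quantile normalization.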

How the results depend on the processing

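Over 513 alternative values of a member's tissue, genotype or stress difference, 20 changed sign, none of them called. Klf9 and Mt1 were called between tissues under 19 of 19 alternatives. The tissue count of 4 genes was 2 when the mouse group was a random block, 2 to 5 without 1 array (2 without WT control colon, IL18ko stress colon or IL18ko control rectum), and 5 with the mean of all probes, where Fkbp5 passed (-0.49, limma adjusted p = 0.0390). It was 3 with no filter on dim probes and 3 with no variance trend, both without Mt2. The genotype count of 0 was 1 with that block (Errfi1) and 0 with tissue means (Errfi1 adjusted p = 0.103). Past 1.5-fold the stress pairs held 4 differences and 1 past 2-fold; the genotype pairs held 5, 2 past 2-fold and 8 with the deposited ratios. Calls over all probes moved more: 8329 between tissues became 5209 to 11698 without 1 array, and 32 between genotypes became 3053 with tissue means, 5316 with the block, 18 with no variance trend, 18 with the deposited ratios, 77 with quantile normalization, 60 with median centring, 6 to 22 without 1 array, and 3562 without WT stress rectum. Stress gave 0 calls, and 23 with tissue means. The cause of these moves was not tested. No paired analysis by replicate number was possible because each group has 1 array; the block is the mouse group, and the labels do not say whether rectum and colon pools came from the same mice. With 1 pool per group, no spread between mice could be measured.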
